A study of Mus musculus with 48 samples.

Results

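The S100 proteins are small EF-hand proteins that bind calcium. The genes described here are S100a1, S100a3, S100a4, S100a5, S100a6, S100a8, S100a9, S100a10, S100a11 and S100a13, taken as every array probe annotated with one of these symbols. They were 10 genes with 12 probes, of 22485 gene symbols on 29436 named probes. Each array measured RNA from 1 well that held a Th2-polarized, nonclonal CD4+ T cell line and naive splenocytes as antigen-presenting cells, in a ratio of 1 to 5. The line was raised from 8- to 12-week-old female Balb/c mice immunized with Copaxone, followed by 13 rounds of restimulation, and a single bank of it served all wells. The wells held 20 μg/mL of a test article or Media for 24 h. Copaxone is the brand-name glatiramer acetate (17 samples from 9 lots) and Glatopa is a generic (16 samples from 4 lots). ACN, acetonitrile nonconforming copolymer, shares the amino acid composition of glatiramer acetate but has another structure (8 samples from 1 lot). Media was the media-only control, without a test article (7 samples). All 48 samples are wells tested on the same day, so p-values here measure the spread between wells. The labels call the cells CD4+ T cells, but every array read T cells and splenocytes together, and a lower value can mean fewer cells of a type or less RNA per cell, which cannot be told apart here.

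Most S100 proteins work as dimers. Calcium opens a groove in the dimer, and the groove holds a target protein. S100a8 and S100a9 pair as calprotectin, the most plentiful cytosolic protein of neutrophils and also a product of monocytes, and calprotectin released from cells signals through Tlr4 and Ager. S100a10 is the exception that no longer responds to calcium and sits permanently with annexin A2. S100a4 binds non-muscle myosin and is present in motile cells, memory T cells and macrophages, and S100a6 (calcyclin) and S100a11 are widespread partners of annexins and other proteins.

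All 10 genes lie on mouse chromosome 3. In the RefSeq annotation of GRCm38.p6 their order was S100a1, S100a13, S100a3, S100a4, S100a5, S100a6, S100a8 and S100a9, with S100a14, S100a16, S100a2 and S100a7a interspersed and S100a7l2 after them, and S100a11 and S100a10 followed as direct neighbours, 54 coding genes beyond S100a7l2. S100a5, which was not called in any comparison with Media, stands between S100a4 and S100a6, which were lower. S100a8 and S100a9, both lower with Copaxone and Glatopa, are direct neighbours. Promoter windows were in the RefSeq table for 9 of the 10 genes. The 250 bases before the annotated start are shown for the lower genes among them, on the gene's own strand, because these genes were lower than Media together. Capitals mark matches on either strand to 6 motifs. They were the core promoter box TATAAA, the STAT factor sites TTCNNNGAA and TTCNNNNGAA, the site TGANTCA bound by AP-1, the site AGATAA bound by Gata3 and related factors, and the site TTGCNNAA bound by C/EBP factors. No motif overlaps another in the windows shown.
S100a4 (chr3:90603520-90603769, plus strand): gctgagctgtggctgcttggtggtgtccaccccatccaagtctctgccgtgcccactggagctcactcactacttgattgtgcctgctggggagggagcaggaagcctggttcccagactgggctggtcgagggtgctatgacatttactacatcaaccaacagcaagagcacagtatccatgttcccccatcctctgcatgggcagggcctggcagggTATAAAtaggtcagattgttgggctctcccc
S100a6 (chr3:90612644-90612893, plus strand): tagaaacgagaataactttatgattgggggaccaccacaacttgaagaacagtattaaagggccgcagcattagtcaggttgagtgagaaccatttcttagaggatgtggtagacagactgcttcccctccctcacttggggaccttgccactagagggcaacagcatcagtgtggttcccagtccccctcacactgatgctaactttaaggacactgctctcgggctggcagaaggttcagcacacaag
S100a8 (chr3:90668821-90669070, plus strand): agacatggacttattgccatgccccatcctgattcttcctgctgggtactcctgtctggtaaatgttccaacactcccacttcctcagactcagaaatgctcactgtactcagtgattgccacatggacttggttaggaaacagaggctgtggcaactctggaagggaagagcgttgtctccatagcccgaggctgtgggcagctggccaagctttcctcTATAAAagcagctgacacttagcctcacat
S100a9 (chr3:90695722-90695971, minus strand): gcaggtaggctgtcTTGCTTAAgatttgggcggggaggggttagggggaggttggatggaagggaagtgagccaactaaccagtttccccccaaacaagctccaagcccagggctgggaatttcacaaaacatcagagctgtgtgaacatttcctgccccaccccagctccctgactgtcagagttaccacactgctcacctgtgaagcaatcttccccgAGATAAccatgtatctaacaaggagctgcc
S100a11 (chr3:93520246-93520495, plus strand): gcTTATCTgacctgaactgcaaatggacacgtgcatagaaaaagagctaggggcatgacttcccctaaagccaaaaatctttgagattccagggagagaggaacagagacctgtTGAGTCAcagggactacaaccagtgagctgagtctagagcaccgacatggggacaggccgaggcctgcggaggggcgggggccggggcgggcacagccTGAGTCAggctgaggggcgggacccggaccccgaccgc

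No motif was common to the 5 windows. A TATA box began 31 bases before the start of S100a4 and 30 bases before that of S100a8, and 12.3% of 32536 distinct windows of this length hold one. S100a9 had a GATA match that began 30 bases before its start and a C/EBP match that began 236 bases before it, and these occur in 9.97% and 9.57% of all windows. S100a11 held AP-1 matches at 136 and 38 bases, a motif found in 6.73% of windows, and a GATA match at 248 bases. The window of S100a6 held none of the 6 motifs. TTCNNNNGAA, present in 5.89% of windows, was found in S100a5 alone among the 9 genes with a window, and TTCNNNGAA, present in 7.04%, in none of these 9. A match is a run of letters, and binding was not measured.

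Values are log2 intensities that were quantile normalized and are therefore relative within an array. The array medians ran from 4.95 to 5.02. Groups were compared in pairs with limma over all 39430 probes, and a probe is called where its two-sided p is under 0.05 after Benjamini-Hochberg adjustment over these probes. The number of arrays limits the precision. Median correlations of an array with the others of its group ran from 0.954 to 0.984.

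With Copaxone, 6 of the 10 genes were lower than in Media, and none was higher. The calls fell on 7 of 12 probes (S100a4 by both of its probes, S100a6, S100a8, S100a9, S100a10 and S100a11), where 7.46% of all probes were called lower and 8.71% higher. With Glatopa the called probes were the same 7, against 8.56% lower and 10.3% higher overall. With ACN, 6 of these 7 were called lower, S100a8 being the exception, and 1 S100a1 probe was called higher, against 3.36% and 3.73% of all probes. The median log2 difference over the 12 probes was -0.56 with Copaxone, -0.63 with Glatopa and -0.32 with ACN, and over all probes it was 0.00 in each. These 3 comparisons share the 7 Media samples.

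**Figure D1:**
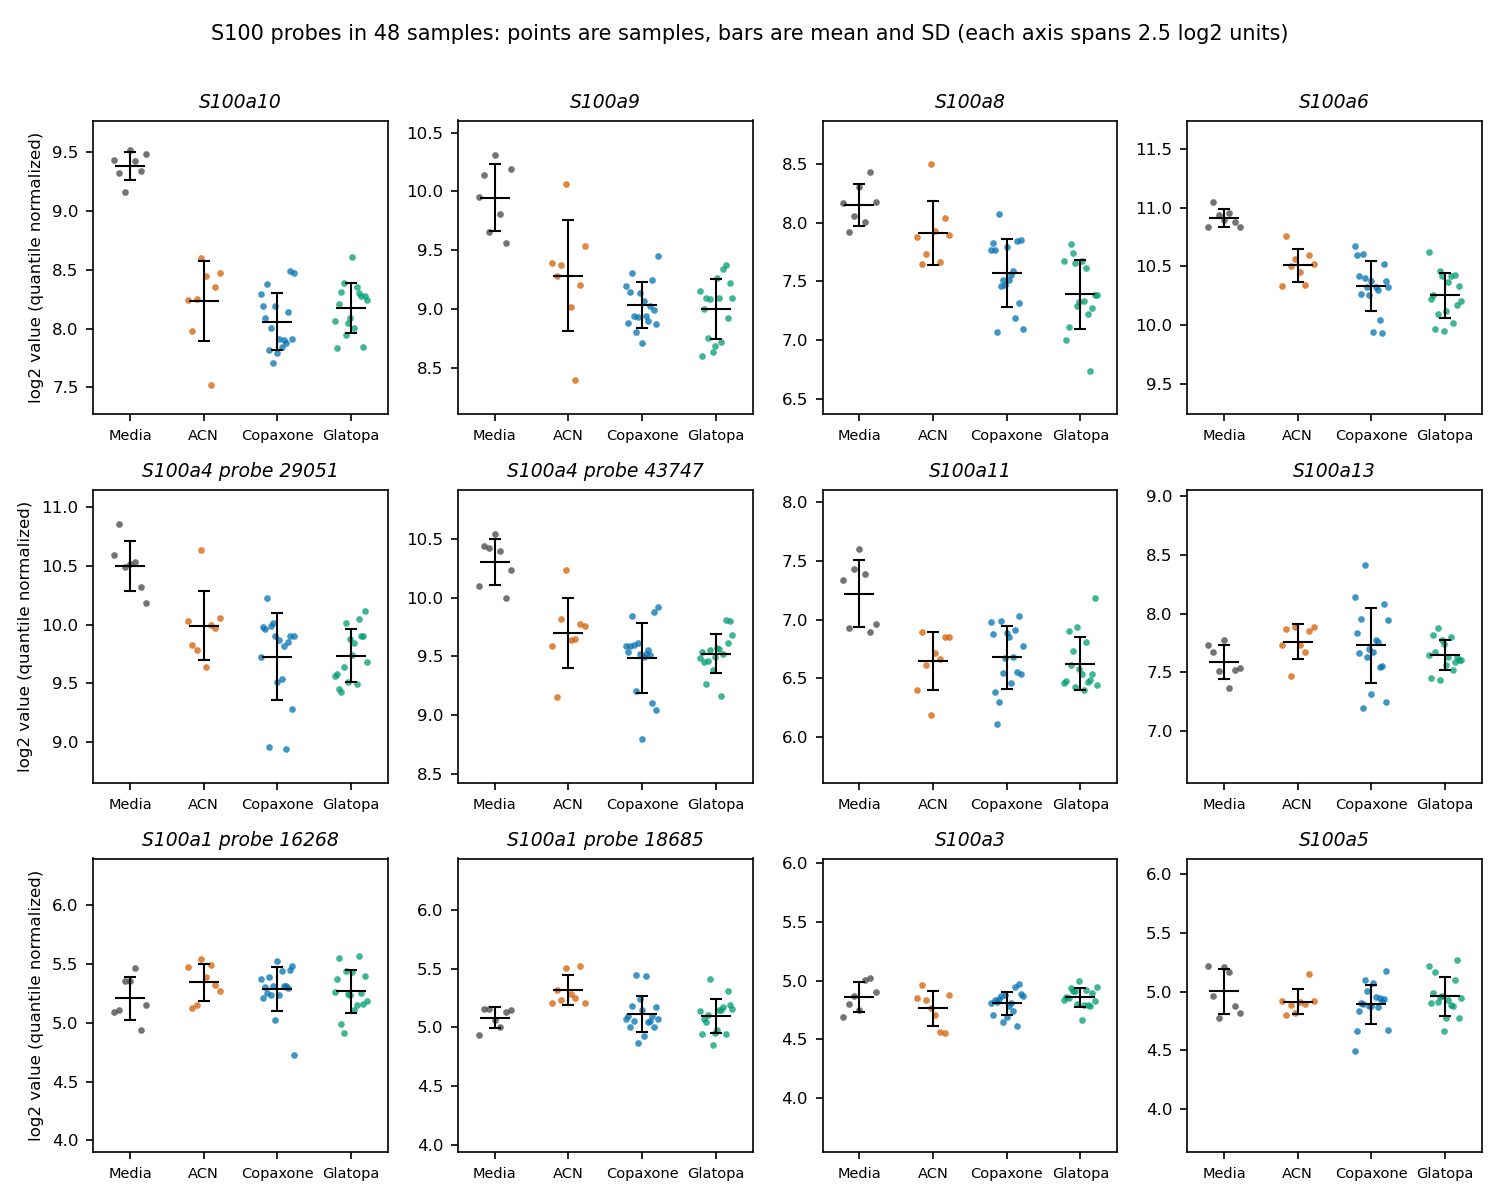
Log2 value of each S100 probe (vertical axis, quantile normalized) in every Media, ACN, Copaxone and Glatopa sample. Points are samples and bars are the mean and SD. In S100a10 the lowest Media sample (9.16) lies above the highest treated sample (8.61), whereas in S100a13, S100a3 and S100a5 all groups overlap.

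S100a10 (gene ID 20194), the annexin A2 partner that helps carry membrane proteins to the cell surface, had the largest difference of the family. Media samples ran from 9.16 through a median of 9.42 to 9.52, and Copaxone samples from 7.71 through 8.00 to 8.49. Glatopa samples ran from 7.84 through 8.22 to 8.61, and ACN samples from 7.52 through 8.30 to 8.60. Every treated sample was below every Media sample. The mean was 9.39 ± 0.12 (SD, n = 7) in Media and 8.06 ± 0.24 (SD, n = 17) with Copaxone, a difference of -1.33 (95% interval -1.52 to -1.13) or 2.51-fold lower (limma adjusted p = 8.65e-11). Glatopa was 2.31-fold lower (-1.21, adjusted p = 3.46e-11) and ACN 2.22-fold lower (-1.15, interval -1.42 to -0.88, adjusted p = 1.78e-05). S100a10 and S100a6 were the probes in which all 3 treated groups lay wholly below Media. Annexin A2 (Anxa2) itself was at 9.91 in Media, 9.68 with Copaxone, 9.69 with Glatopa and 9.76 with ACN, and none of these differences was called (adjusted p = 0.0509, 0.122 and 0.482).

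S100a8 and S100a9, the 2 chains of calprotectin, were both lower with Copaxone and Glatopa. S100a9 (gene ID 20202) ran from 9.56 through 9.95 to 10.31 in Media and from 8.71 through 8.99 to 9.45 with Copaxone. Glatopa samples lay between 8.60 and 9.37 with a median of 9.09, and ACN samples between 8.40 and 10.06 with a median of 9.33. Copaxone and Glatopa did not overlap Media, and 7 of 8 ACN samples were below the lowest Media sample. The differences from Media were -0.91 with Copaxone (1.88-fold lower, adjusted p = 9.10e-08), -0.94 with Glatopa (1.92-fold, adjusted p = 5.04e-07) and -0.66 with ACN (1.58-fold, adjusted p = 0.0392). The ACN call was lost on leaving out any of 10 of the 15 samples in turn (ACN replicates 1, 2, 3, 5 and 7, Media replicates 1, 2, 4, 5 and 7, adjusted p 0.0548 to 0.0883), while the difference stayed between -0.77 and -0.54. The call was also lost with the methods' t-test after Benjamini-Hochberg adjustment (adjusted p = 0.0889) and with lot as a random block (adjusted p = 0.289).

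S100a8 (gene ID 20201) ran from 7.92 through 8.17 to 8.43 in Media. It ran from 7.07 through 7.55 to 8.07 with Copaxone, from 6.74 through 7.36 to 7.82 with Glatopa and from 7.65 through 7.89 to 8.50 with ACN. Glatopa lay wholly below Media, Copaxone did so in 16 of 17 samples, and ACN in 5 of 8. The differences from Media were -0.58 with Copaxone (adjusted p = 0.000405) and -0.76 with Glatopa (1.69-fold, adjusted p = 1.36e-05). With ACN the difference was -0.24 (interval -0.48 to 0.00, adjusted p = 0.288) and was not called. ACN replicate 4, at 8.50, was above all Media samples, and without it the ACN difference was -0.32 and was called (adjusted p = 0.0289).

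S100a4 (gene ID 20198), also known as metastasin, had 2 probes that gave like results. Probe 29051 ran from 10.18 through 10.52 to 10.86 in Media, from 8.94 through 9.87 to 10.23 with Copaxone, from 9.43 through 9.71 to 10.11 with Glatopa and from 9.64 through 9.99 to 10.63 with ACN. Glatopa did not overlap Media, and 16 of 17 Copaxone and 7 of 8 ACN samples lay below it. Probe 43747 ran from 10.00 through 10.39 to 10.54 in Media and from 8.80 through 9.54 to 9.92 with Copaxone, and Glatopa (9.16 to 9.81) was also wholly below Media. With Copaxone S100a4 was 1.71-fold lower by probe 29051 (-0.77, adjusted p = 0.000221) and 1.76-fold lower by probe 43747 (-0.81, adjusted p = 1.01e-05). Glatopa gave 1.70-fold and 1.72-fold lower values, and ACN 1.42-fold (adjusted p = 0.0191) and 1.52-fold lower values (adjusted p = 0.00555). The 2 probes deviated together in part within groups (r = 0.45 over 48 samples), whereas the 2 probes of S100a1 did not (r = 0.04). By group, r of the S100a4 probes was 0.44 in Media, 0.69 in ACN, 0.30 in Copaxone and 0.69 in Glatopa. These correlations describe samples that share arrays across probes.

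S100a6 (gene ID 20200), calcyclin, varied little in Media, where its 7 samples lay between 10.83 and 11.05. Copaxone samples ran from 9.93 through 10.33 to 10.67, Glatopa samples from 9.95 through 10.24 to 10.63, and ACN samples from 10.33 through 10.51 to 10.76. Every treated sample was below every Media sample. The gene was 1.49-fold lower with Copaxone (-0.58, adjusted p = 6.89e-06), 1.58-fold lower with Glatopa (-0.66, adjusted p = 2.41e-07) and 1.32-fold lower with ACN (-0.41, adjusted p = 0.000754). Its binding protein Cacybp went the other way. Cacybp was at 8.51 in Media and rose by 0.58 with Copaxone (adjusted p = 2.64e-05), by 0.53 with Glatopa (adjusted p = 0.00037) and by 0.40 with ACN (adjusted p = 0.0339).

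S100a11 (gene ID 20195), a partner of annexin A1, ran from 6.89 through 7.34 to 7.60 in Media. It ran from 6.11 through 6.69 to 7.03 with Copaxone, from 6.40 through 6.54 to 7.18 with Glatopa and from 6.19 through 6.69 to 6.89 with ACN. The highest ACN sample and the lowest Media sample were both at 6.89 without overlap, and 13 of 17 Copaxone and 13 of 16 Glatopa samples were below the lowest Media sample. The gene was 1.46-fold lower with Copaxone (-0.54, adjusted p = 0.00128), 1.51-fold lower with Glatopa (-0.60, adjusted p = 0.000112) and 1.49-fold lower with ACN (-0.58, adjusted p = 0.00903). A probe annotated to the pseudogene S100a11-ps was at 6.61 in Media and differed from it by -0.29 with Copaxone (adjusted p = 0.0518), -0.42 with Glatopa (adjusted p = 0.00478) and -0.41 with ACN (adjusted p = 0.112). Probe sequences were not available to check whether each probe reads only its own transcript, so the 2 signals may not be separate. Annexin A1 (Anxa1), a calcium-dependent membrane protein of myeloid and T cells, fell by 1.13 with Copaxone (adjusted p = 2.60e-06), by 1.22 with Glatopa (adjusted p = 7.49e-07) and by 0.82 with ACN (adjusted p = 0.000343).

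The remaining 4 genes were not called with Copaxone or Glatopa. S100a13 (gene ID 20196), which takes part in the unconventional release of Fgf1 and Il1a, was at 7.59 ± 0.14 in Media (SD, n = 7), 7.73 ± 0.32 in Copaxone (SD, n = 17), 7.65 ± 0.13 in Glatopa (SD, n = 16) and 7.76 ± 0.15 in ACN samples (SD, n = 8). Its 95% intervals against Media were -0.11 to 0.39, -0.07 to 0.19 and 0.01 to 0.34, and the adjusted p were 0.535, 0.617 and 0.239. S100a1 (gene ID 20193), a gene best known from heart muscle, S100a3 (gene ID 20197), known from hair follicles, and S100a5 (gene ID 20199), known from olfactory neurons, were near the array medians in every group. S100a3 samples ran from 4.56 to 5.02 and S100a5 samples from 4.49 to 5.27. The intervals of S100a3 and S100a5 against Media lay between -0.27 and 0.11 in the 6 comparisons, and whether these genes were above background was not measured here.

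S100a1 gave a call in 1 probe only. Probe 18685 ran from 4.94 through 5.13 to 5.15 in Media and from 5.21 through 5.27 to 5.52 with ACN, so that all 8 ACN samples were above all Media samples. The difference was 0.23 (1.17-fold, adjusted p = 0.0327). Probe 16268 of the same gene was at 5.21 in Media and 5.34 with ACN and was not called (adjusted p = 0.483). The call of probe 18685 was lost on leaving out ACN replicate 2, 4 or 7 or Media replicate 1, 4 or 5 (adjusted p 0.051 to 0.0681). It was also lost with cyclic loess (adjusted p = 0.0569), the replicate block (0.0609), the mean per gene symbol (0.0628), an intensity trend with a robust prior (0.0955) and lot as a random block (0.252), and the difference is under the 1.3-fold limit.

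**Figure D2:**
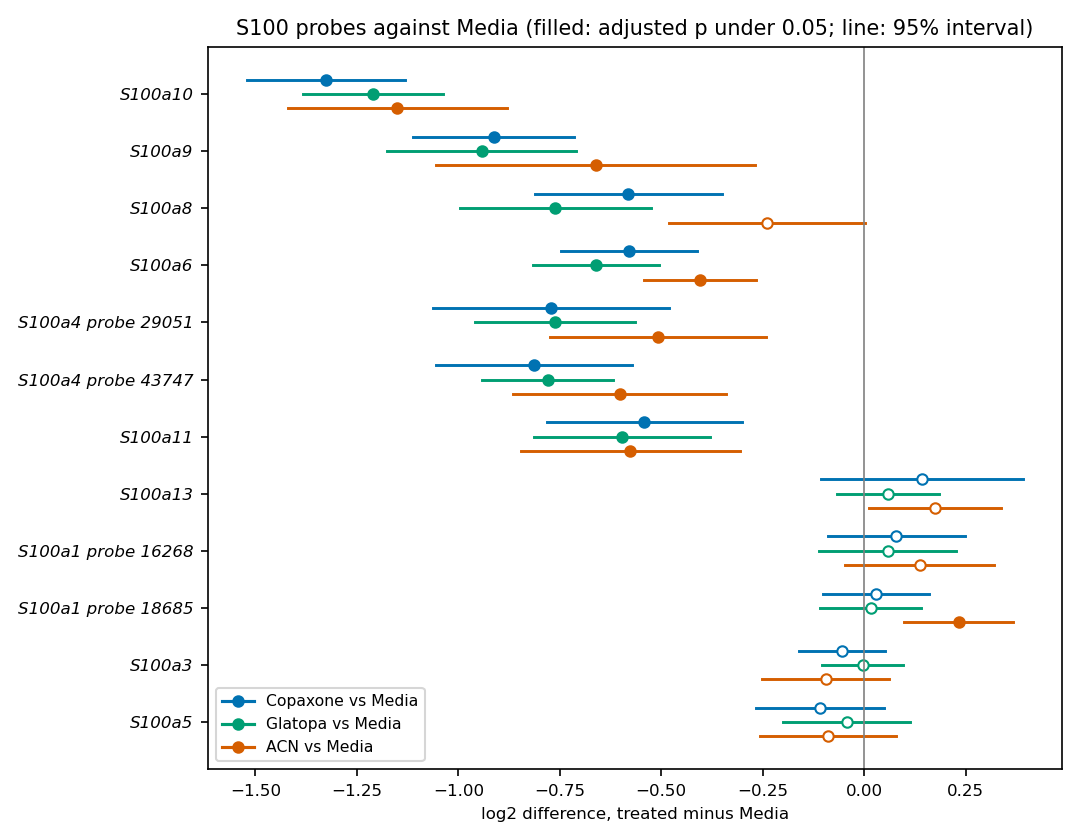
Log2 difference of each S100 probe from Media (horizontal axis) with Copaxone, Glatopa and ACN. Points are differences, lines are 95% intervals, and filled points are called. The 7 probes at the top lie to the left of 0 in all 3 comparisons, down to -1.33 for S100a10, and those of S100a13, S100a1, S100a3 and S100a5 lie at most 0.23 from 0.

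The count of probes whose treated samples all lay below Media was 4 with Copaxone (S100a4 probe 43747, S100a6, S100a9 and S100a10), 6 with Glatopa (S100a11 being the exception) and 3 with ACN (S100a6, S100a10 and S100a11). Over all probes such a gap was found in 1.43%, 1.89% and 1.1%. Since ACN is 1 lot, lot and ACN cannot be told apart. With lot as a random block only S100a6 (adjusted p = 0.0207) and S100a10 (adjusted p = 0.00119) were called lower with ACN. That fit, also named above for S100a9 and S100a1, took all ACN samples as 1 block and each Media sample as its own. It therefore cannot separate lot from ACN.

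The glatiramoids were then compared at the same dose and time to ask whether products of different structure or manufacturer gave different S100 levels. Between Glatopa and Copaxone 0 of the 12 probes were called by limma or by the methods' t-test (limma called 0% of all probes), and 0 had an unadjusted p under 0.05, where 4.13% of all probes did. The largest difference was that of S100a8, 0.18 lower with Glatopa (interval -0.38 to 0.02). S100a10 was 0.12 higher with Glatopa (interval -0.04 to 0.27). No interval reached below -0.38 or above 0.27. A p above the threshold does not show that the products act alike, and these intervals state what the samples leave possible.

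Between ACN and Copaxone 0 of the 12 probes were called, again by either test (limma called 0.112% of all probes). An unadjusted p under 0.05 was found for 3 of them and for 8.01% of all probes. They were S100a1 probe 18685 (0.20 higher with ACN, adjusted p = 0.255), S100a8 (0.34 higher, interval 0.10 to 0.58, adjusted p = 0.333) and S100a6 (0.17 higher, interval 0.01 to 0.34, adjusted p = 0.585). The difference was above 0 in 10 of 12 probes. S100a10 was 0.17 higher with ACN (interval -0.06 to 0.41) and S100a9 was 0.25 higher (interval -0.01 to 0.51).

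Between ACN and Glatopa 1 of the 12 probes was called, against 0.68% of all probes. The mean of S100a8 was 7.91 ± 0.27 in ACN samples (SD, n = 8) against 7.39 ± 0.29 in Glatopa samples (SD, n = 16), a difference of 0.52 (1.43-fold, interval 0.28 to 0.76, adjusted p = 0.0351). The groups overlapped, since ACN samples started at 7.65 and Glatopa samples reached 7.82. Without ACN replicate 4 the difference was 0.44 and was not called (adjusted p = 0.112). The call was also lost without ACN replicate 1, 7 or 8 and without Glatopa lot 2, 3 or 4 (adjusted p 0.0583 to 0.116 over these 7 omissions). S100a6 was 0.25 higher with ACN (interval 0.10 to 0.41, adjusted p = 0.13) and S100a9 0.28 higher (interval 0.00 to 0.56, adjusted p = 0.476). S100a10 differed by 0.06 (interval -0.16 to 0.28) and S100a11 by 0.02 (interval -0.18 to 0.22).

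**Figure D3:**
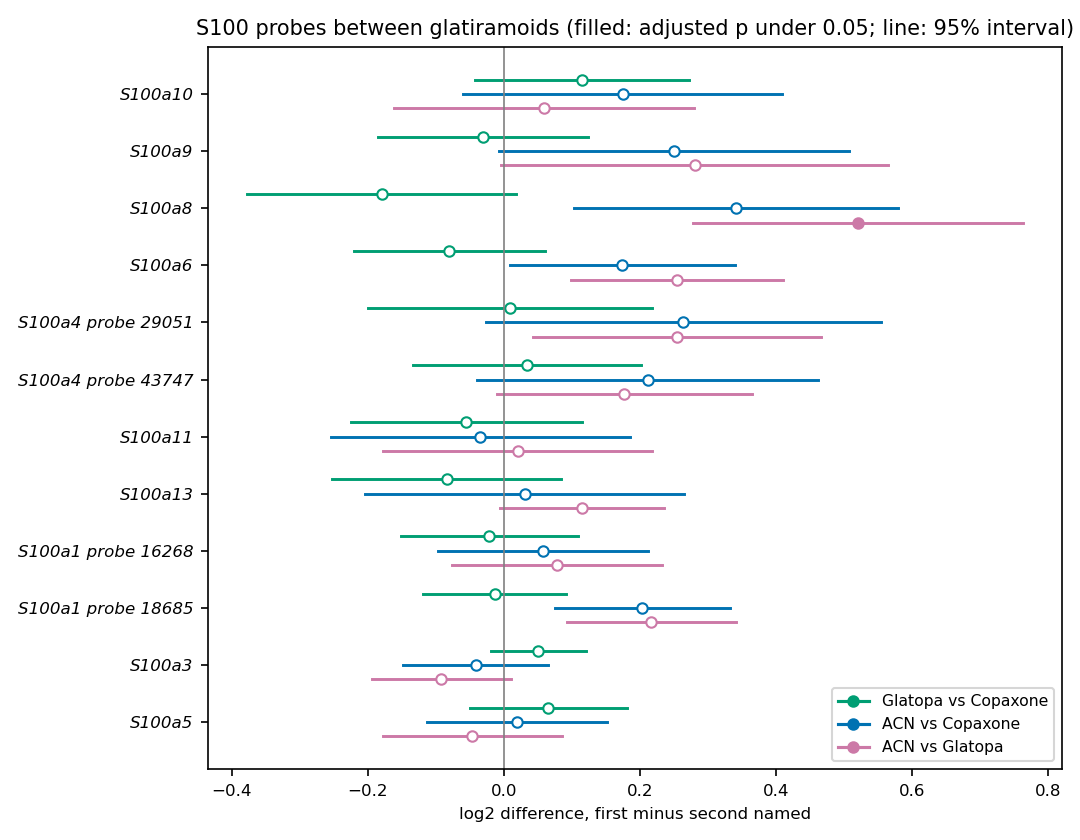
Log2 difference of each S100 probe (horizontal axis) between Glatopa and Copaxone, ACN and Copaxone, and ACN and Glatopa. Points are differences, lines are 95% intervals, and the filled point is the called one. S100a8 between ACN and Glatopa (0.52) is the only filled point, and the intervals of Glatopa against Copaxone all cross 0.

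ACN replicate 4 stood apart in this family. It was the highest ACN sample in 5 of the 7 probes that were lower than Media (S100a4 by both probes, S100a8, S100a9 and S100a10) and the lowest in S100a11. Its correlation with the other ACN arrays (median 0.973) equalled the median over ACN arrays. The same sample had the highest mean of the T cell markers among ACN samples (7.56, where the ACN median was 7.24). It also had the highest mean of the monocyte and macrophage, platelet and erythroid markers. Counted from the lowest of the 8 ACN samples, it ranked 5 for the neutrophil and 4 for the NK cell markers. It ranked 3 for the B cell and 2 for the dendritic cell markers. The part of these cells in its S100 values was not tested. ACN replicate 6 was the lowest ACN sample for S100a9 (8.40) and S100a10 (7.52).

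Lots of one product were compared with limma's moderated F test. Among the 9 Copaxone lots none of the 12 probes was called (0.0254% of all probes called), and 1 had an unadjusted p under 0.05, as did 3.4% of all probes. It was S100a6 (p = 0.021, adjusted p = 1.00). Its lot means ran from 9.99 in lot 7 to 10.63 in lot 1, with an SD within lots of 0.13. For S100a10 the lot means ran from 7.85 in lot 5 to 8.49 in lot 8, which is a single sample. Among the 4 Glatopa lots none was called (0% of all probes called), and the S100a4 probes had unadjusted p of 0.0397 and 0.0211 (adjusted p = 1.00 for both), where 3.94% of all probes had one under 0.05. Lot 4 was the highest by both probes (9.90 and 9.73), and lot 1 the lowest (9.51 and 9.44). S100a10 ranged from 8.10 in lot 1 to 8.32 in lot 3. In every lot of both products the mean of S100a10 and of S100a6 was below the lowest Media sample.

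**Figure D4:**
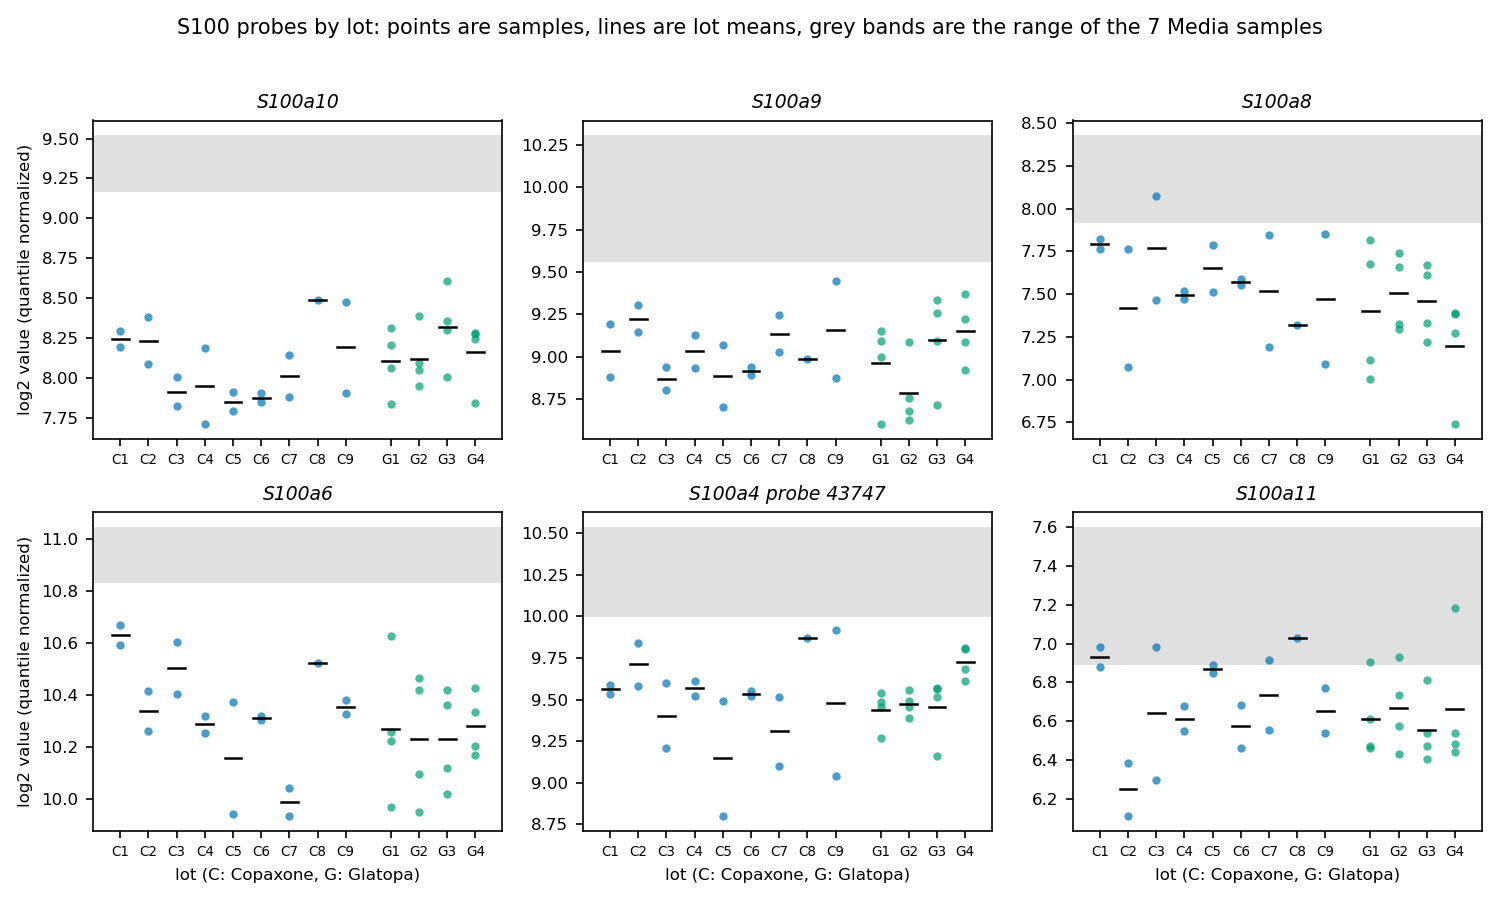
Log2 values (vertical axis) of S100a10, S100a9, S100a8, S100a6, S100a4 probe 43747 and S100a11 in Copaxone lots C1 to C9 and Glatopa lots G1 to G4 (horizontal axis). Points are samples, lines are lot means, and grey bands are the range of the 7 Media samples. The band lies above all points for S100a10 and S100a6, and points enter it for S100a8 and S100a11.

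The 7 lower probes shared a direction against Media, but their values moved together only in part within groups. Over the 21 pairs of these probes the correlation of deviations from the group means had a median of 0.08 and ran from -0.26 to 0.62. Over the 35 pairs with the other 5 probes the median was 0.00. The highest pair was S100a9 and S100a10, with r = 0.62 over 48 samples. It was 0.68 within Media, 0.81 within ACN, 0.67 within Copaxone and 0.39 within Glatopa, and 0.51 over the 40 samples without ACN. S100a4 probe 43747 and S100a9 gave 0.48. These correlations are descriptions over samples whose probes share an array. S100a9 and S100a10 were each among the 5 genes most like the other. The other genes most like S100a10 were Abhd17c (r = 0.63), Pdzk1ip1 (0.60), Cebpb (0.60) and Ube2g1 (0.58), and the gene most like S100a9 after S100a10 was Zbtb5 (0.62). For S100a8 the closest was Prpf4 (0.67), and for S100a4 it was Rabac1 (0.72).

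**Figure D5:**
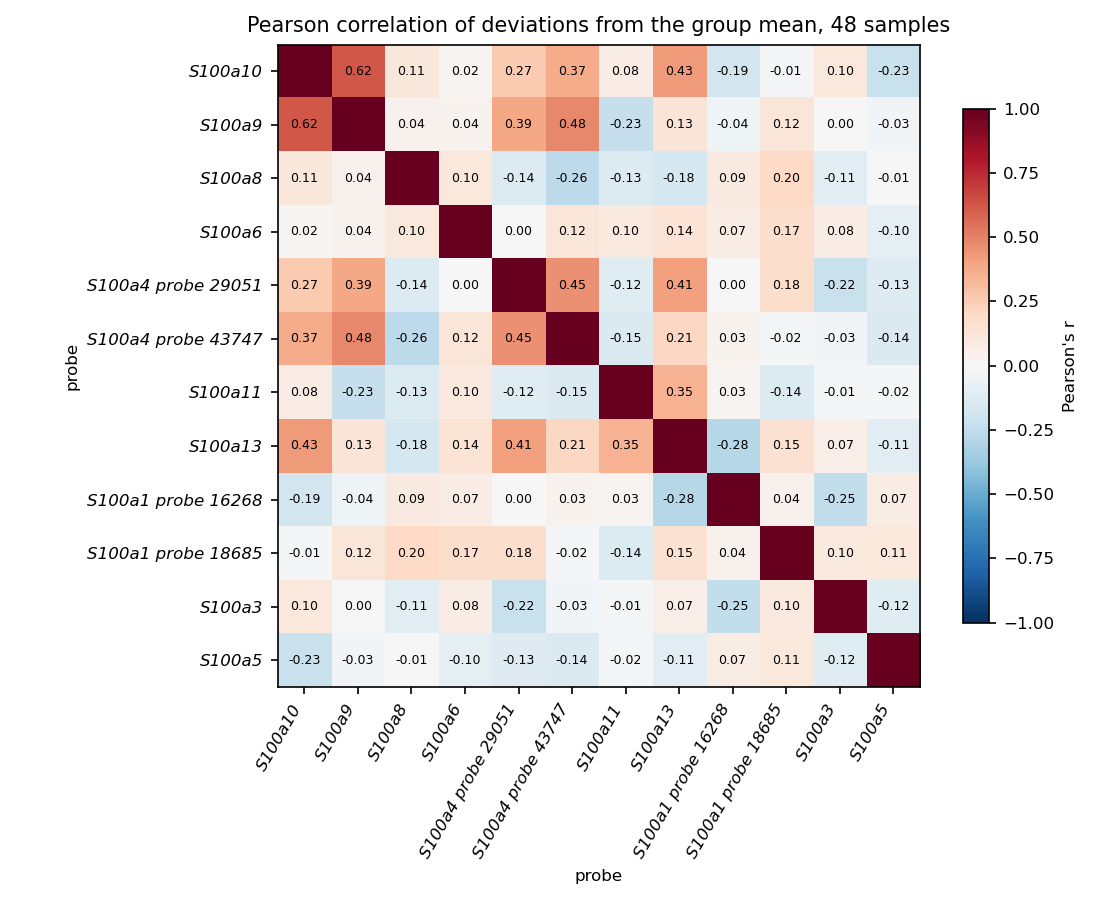
Pearson's r of deviations from the group mean for each pair of S100 probes over 48 samples (both axes list the probes and colour gives r). S100a9 with S100a10 is the darkest cell off the diagonal (0.62), and S100a8 with S100a9 is near 0 (0.04).

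S100a8 and S100a9 encode chains of 1 complex, but no relation between their values within a group passed the adjusted test. Pearson's r was -0.15 in Media (Spearman's rho 0.00), 0.70 in ACN (rho 0.36), -0.45 in Copaxone (rho -0.39) and -0.05 in Glatopa (rho 0.09). The permutation p of r, exact for Media and ACN, were 0.737, 0.0816, 0.0711 and 0.855, and those of rho 1.00, 0.389, 0.12 and 0.744. All were two-sided. Adjusted over the 16 relations tested, none was under 0.435. Without the 2 samples farthest from the S100a8 median r was 0.88 in Media, 0.48 in ACN, -0.33 in Copaxone and 0.21 in Glatopa. For the value in Media the exact permutation p was 0.0583 (adjusted p = 0.467). Media had only 7 samples before the omission, and those left were too few for a single relation to pass the adjustment. This test therefore decides nothing. S100a10 with Anxa2, S100a11 with Anxa1 and S100a6 with Cacybp made up the other 12 relations. The smallest p among them was that of S100a11 with Anxa1 in Media (r = 0.76, exact permutation p = 0.0415, rho = 0.79, exact permutation p = 0.048, adjusted p = 0.435 and 0.768). Leaving out the 2 farthest samples gave r = 0.96 there (exact permutation p = 0.0417, adjusted p = 0.467), where the same limit on the test holds. In the other 3 groups r of this pair over all samples lay between -0.28 and -0.02.

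Of 7 further S100 genes measured (S100a7a, S100a7l2, S100a14, S100a16, S100b, S100g and S100z), S100a16 rose and none fell. For this list and those below, 7.46% of all probes were called lower and 8.71% higher with Copaxone against Media. The shares were 8.56% and 10.3% with Glatopa, and 3.36% and 3.73% with ACN. S100a16 was at 5.10 in Media, 5.58 with Copaxone (0.48 higher, adjusted p = 0.00922) and 5.50 with Glatopa (0.40 higher, adjusted p = 0.00057), and its difference with ACN was 0.26 (adjusted p = 0.102). The median of the list was -0.01 with Copaxone, -0.04 with Glatopa and -0.05 with ACN. S100a2, outside this list, was at 4.79 in Media and was not called.

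Of 17 measured partners of S100 proteins, 3 fell and 1 rose with Copaxone, 3 fell and 2 rose with Glatopa, and 3 fell and 1 rose with ACN. Anxa1 and Anxa5, both annexins, fell and Cacybp rose in all 3. Anxa5 fell by 0.32 with Copaxone (adjusted p = 0.0152), 0.51 with Glatopa (adjusted p = 0.000355) and 0.27 with ACN (adjusted p = 0.0474). Plg, which encodes plasminogen, was the third to fall with Copaxone and Glatopa, and Sugt1, a cochaperone that binds S100a6, with ACN. Plg was less than 0.5 above the array median in all Copaxone and all Glatopa samples, so its level there may be background. The phosphatase Ppp5c rose with Glatopa. The median of the partners was -0.08, -0.08 and -0.09.

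Of 11 measured receptors and signalling genes for S100 proteins outside the cell, 2 rose and 1 fell with Copaxone and with Glatopa, and 1 rose and 1 fell with ACN. Cd36, a scavenger receptor that binds S100a8 and S100a9 with fatty acids, fell by 0.98 with Copaxone (adjusted p = 4.69e-09), 1.03 with Glatopa (adjusted p = 9.17e-09) and 1.00 with ACN (adjusted p = 3.23e-05). Cd69, an early activation receptor of lymphocytes, rose by 0.59, 0.61 and 0.52, and the adaptor Myd88 rose by 0.25 with Copaxone and 0.28 with Glatopa. The receptors Tlr4 (5.17 in Media) and Ager (4.75 in Media) were not called in any of these comparisons.

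Of 21 measured EF-hand proteins outside the family, 5 rose and 1 fell with Copaxone, 5 rose and 0 fell with Glatopa, and 3 rose and 0 fell with ACN. Cib1, a calcium- and integrin-binding protein, Ppp3r1, the regulatory subunit of calcineurin, and Rcn1, a protein of the endoplasmic reticulum, rose in all 3. With Copaxone they rose by 0.49, 0.41 and 0.45. Efhd2, an actin-binding protein, rose by 0.45 with Copaxone (adjusted p = 0.0418), and Capn2, a calpain, was the one that fell (by 0.27, adjusted p = 0.0327). Calm3, a calmodulin gene, rose by 0.29 with Copaxone (adjusted p = 0.0293) and 0.41 with Glatopa (adjusted p = 1.89e-05). The median of the list was 0.06, 0.06 and 0.05, next to 0.00 over all probes.

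A set of 4 immune genes outside the family was also followed. Icosl, the ligand of the T cell costimulator Icos, fell from 8.67 in Media by 1.92 with Copaxone, 1.89 with Glatopa and 1.74 with ACN (adjusted p = 1.98e-14, 2.04e-17 and 1.18e-10). Ltb, which encodes lymphotoxin beta, fell by 1.03, 1.11 and 1.06 (adjusted p = 5.54e-07, 5.84e-07 and 0.000107). Gata3 and Stat6, transcription factors of Th2 cells, were not called.

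Markers of the cells that carry S100 proteins also differed from Media. Of 9 measured monocyte and macrophage markers, 5 (Lyz1, Adgre1, Csf1r, Mpeg1 and Fcgr1) were lower and 0 higher with each glatiramoid, with a median of -0.75, -0.78 and -0.54. Their summed level on the log2 scale, which follows the brightest markers most, ran from 12.39 to 13.39 in Media and 11.64 to 12.83 with Copaxone. It ran from 10.78 to 12.90 with Glatopa and 12.19 to 13.25 with ACN. Their mean log2 value ran from 7.48 to 7.96 in Media, and no treated group overlapped this range. The mean ran from 6.78 to 7.18 with Copaxone, 6.66 to 7.08 with Glatopa and 7.07 to 7.39 with ACN. Of 12 neutrophil markers, 4 were lower with Copaxone and with Glatopa and 2 with ACN. Their summed level ran from 12.28 to 13.17 in Media, 11.31 to 12.98 with Copaxone, 11.12 to 12.75 with Glatopa and 12.02 to 12.87 with ACN. The mean log2 value of these 12 markers ran from 5.89 to 5.97 in Media, and no treated group overlapped this range. The highest treated samples had means of 5.79 with Copaxone, 5.78 with Glatopa and 5.83 with ACN. Ly6g and Cxcr2, defining markers of neutrophils, stayed less than 0.5 above the array median in all samples of each group.

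Of 8 T cell markers, 5 were lower with Copaxone and ACN and 7 with Glatopa, with medians of -0.81, -0.67 and -0.78 (Copaxone, ACN, Glatopa), and their summed level ran from 11.16 to 11.49 in Media and from 10.21 to 10.98 in the treated groups. Cd4 stayed less than 0.5 above the array median in every sample, whereas Cd3d was at 9.75 in Media and 9.00 with Copaxone. Of 6 B cell markers, 2 were higher with Copaxone and Glatopa and 1 with ACN, while 1, 2 and 0 were lower. Of 4 platelet markers, 2 were lower in each comparison, and of 4 NK cell markers, 2, 2 and 1 were higher. Of 3 erythroid markers 1 was lower in each, and of 6 dendritic cell markers 1 was higher and 1 lower in each. Within groups, the S100 probes that were lower correlated with the mean of the neutrophil markers at r between -0.03 and 0.15, with that of the monocyte and macrophage markers between -0.14 and 0.12, and with that of the T cell markers between -0.10 and 0.42 (S100a4 probe 29051). With the mean of the B cell markers r lay between -0.30 (S100a4 probe 29051) and 0.11 (S100a6), below 0 in 5 of the 7 probes. ACN replicate 5 had a B cell marker mean of 9.48, where the ACN median was 8.26. The B cell correlations were not computed without this sample. The part of these cells in the S100 differences was not tested. Between ACN and Glatopa, where 0.68% of all probes were called, 2 of the 9 monocyte and macrophage markers were also higher with ACN. They were Lyz1 (by 0.41, limma adjusted p = 0.04) and Lyz2 (by 0.65, adjusted p = 0.0308). Of the 4 platelet markers 1 was higher with ACN, and of the 4 NK cell markers 1 was lower. Of the 12 neutrophil markers 0 were called, as in the T cell, B cell, dendritic cell and erythroid lists.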

How the data were processed

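Wells of mouse T cells and splenocytes were measured on Agilent arrays with a single dye. Background was corrected by the authors (normexp, offset 8), and the deposited log2 values were quantile normalized by them in limma, whose version is not given in the sources used here. Quantile normalization gives all arrays one distribution, so a shift of all genes would not be seen. Of 43020 spots, 387 sets of 10 or more replicate spots (one symbol and accession) were averaged, which left 39430 probes. Low values were kept, and no signal over background was used.

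Pairs of groups were fitted alone in limma 3.58.1 (R 4.3.3, version 1.17.8 of data.table), with Benjamini-Hochberg over all probes and 95% intervals. Lots were compared with moderated F tests. Correlations used exact permutation or, from 10 samples, 100000 resamples (Python 3.11.15, numpy 2.4.6, pandas 2.3.3, scipy 1.17.1, matplotlib 3.10.9). Tests were tested on simulated data. The S100 genes, gene lists and motifs were chosen with earlier results of these data known. All S100 probes are described, with up to 4 called genes per list with the largest difference (1 probe per gene, highest mean), partners in the correlations, and for likeness up to 5 genes. Defining markers of cell types, and Anxa2, Tlr4, Ager, S100a2 and S100a11-ps, are named in addition, after their values were seen. Promoters are RefSeq, GRCm38.p6. The array files name no build, so other coordinates are not printed. Probes that could not be named to a gene numbered 9994 and were kept in the adjustment. Alternatives were the methods' t-test, all 4 groups in one fit, a trend with a robust prior, cyclic loess, array weights, lot as a random block, a replicate block, the brighter part of the probes, means per symbol, unaveraged spots, a 1.3-fold limit, the first within-group component as a covariate (12.0% of that variance), and each lot or replicate left out.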

Additional observations from a re-analysis of the deposited data

Results flagged for a closer look

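Of 24 groups of Media and ACN samples (12 probes in each), 3 had a sample far from the others, where chance alone flags about 1 in 20 groups. S100a4 probe 29051 was at 10.63 in ACN replicate 4, and the next ACN sample was at 10.06. S100a8 was at 8.50 in the same sample, and the next was at 8.04. S100a5 was at 5.15 in ACN replicate 7, next to 4.92, which is near the array median. The S100a8 difference between ACN and Glatopa, 0.52 (limma adjusted p = 0.0351), is the difference between glatiramoids that was called among the S100 probes, and without ACN replicate 4 it was 0.44 (adjusted p = 0.112).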

How the results depend on the processing

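Over the alternatives, counts of S100 probes called against Media stayed between 5 and 7 with Copaxone, at 7 with Glatopa, and between 2 and 7 with ACN. Means per symbol count genes instead of probes, and there 6 genes were called with Copaxone, 6 with Glatopa and 5 with ACN. The counts were 0 in every alternative for Glatopa against Copaxone, ACN against Copaxone and both lot comparisons, and no difference that was called changed sign. With lot as a random block, 2 were called with ACN against Media (890 of all probes against 2793). All ACN samples formed 1 block there and each Media sample its own, so this count does not measure differences between lots. Between ACN and Glatopa, where 1 was called, the count was 0 with the methods' t-test, 0 with array weights, 2 with cyclic loess and 3 with lot as a random block, the added calls being S100a6 in both and S100a1 probe 18685 in the second. Leaving out 1 ACN replicate or Glatopa lot gave counts from 0 to 1. Over all probes that comparison ranged from 82 calls (without Glatopa lot 3) to 1202 (lot block), next to 268, and ACN against Copaxone from 3 (intensity trend) to 92 (all 4 groups in one fit), next to 44. A limit of 1.3-fold left 4110 of 6374 calls with Copaxone and 4341 of 7453 with Glatopa. Copaxone lots gave 2 calls in the brighter part of the probes, next to 10. The cause was not tested.

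Replicate numbers are shared between groups in the labels. Deviations of same-numbered samples correlated between -0.47 and 0.18, so the numbers were not taken as pairs. A fit with the replicate number as a block kept only samples whose number occurs in both groups. Of Media it kept replicates 1 and 2 beside Copaxone and 1 to 4 beside Glatopa. Of ACN it kept replicates 1 and 2 beside Copaxone and 1 to 4 beside Glatopa. With this block, 5 S100 probes were called with Copaxone against Media (2243 of all probes). The block gave 7 with Glatopa (6097 of all probes) and 5 with ACN (2510 of all probes) against Media. Between the glatiramoids it gave 0 S100 probes (589 of all probes between ACN and Glatopa, 42 between ACN and Copaxone). With Copaxone the block left S100a8 at -0.48 (limma adjusted p = 0.185) and S100a11 at -0.46 (adjusted p = 0.218). The effect of the block and that of fewer Media samples were not separated. The signal over background of single probes was not used, which limits what can be said of probes near the array median.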
